A study of Mus musculus with 16 samples.

Results

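The Zfp genes studied here were 176 mouse genes whose symbol is made of Zfp and a number only, of 284 such genes and 19338 gene symbols in all. They were selected on their level: each had a mean normalized count of at least 200, taken from the highest of its entries, and *Zfp42*, the ESC marker also known as *Rex1*, was left out by the rule. The mean was the authors' own over all 16 libraries of nuclear RNA-seq of mouse embryonic stem cells (ESCs), so it carries no SD and no values by library or group. The levels below are therefore a description of the pooled cells, and no difference between groups is given.

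The libraries came from 4 groups of 4. PRC1-null cells were *Ring1a*-/-;*Ring1b*fl/fl cells treated with 800 nM 4-hydroxytamoxifen for 72 h, which deletes *Ring1b*. PRC1/2-null cells were *Eed*-/-;*Ring1a*-/-;*Ring1b*fl/fl cells given the same treatment, and PRC2-null cells were that line untreated. Both came from 1 clone, labelled B4. The wild-type group was *Ring1a*-/-;*Ring1b*fl/fl cells left untreated, so every group lacked RING1. RNA was taken from nuclei, ribosomal RNA was depleted, and the depth of each library is not known from the tables. A gene high in some groups only and a gene of middling level in all groups cannot be told apart in this mean.

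Zfp genes encode zinc finger proteins, most of them of the C2H2 kind, in which a pair of cysteines and a pair of histidines hold a zinc ion and each finger reads a few bases of DNA. Many carry a KRAB box, which recruits the co-repressor TRIM28 (KAP1) and, through it, histone H3 lysine 9 methylation. In ESCs, KRAB zinc finger proteins silence retroelements and keep imprints, while zinc finger proteins without the box include general transcription factors, RNA-binding proteins and ubiquitin ligases.

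The labelled cell type was checked against marker genes. All 7 ESC markers found reached 200, with a range from 568 for *Utf1* to 5687 for *Esrrb*, and *Zfp42* had a mean normalized count of 2532. None of 6 fibroblast and feeder markers reached 200, with 162 for *Pdgfrb* as the highest, and *Lum*, *Dcn* and the blood marker *Ptprc* had 0.283, 1.11 and 2.86. Of the primitive endoderm markers, 3 of 4 reached 200, with 4716 for *Gata4* and 2247 for *Gata6*, and of the trophoblast markers *Hand1* alone did, at 508. Whether these came from every group was not tested.

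Promoter sequences of the 3 members with the highest level per kilobase of their listed transcript show how members differ in CpG content. They are the 250 bases before the RefSeq start in GRCm38.p6, read 5′ to 3′ along the gene, with each CpG in capitals.
Zfp207, chr11:80383029-80383278 (plus strand): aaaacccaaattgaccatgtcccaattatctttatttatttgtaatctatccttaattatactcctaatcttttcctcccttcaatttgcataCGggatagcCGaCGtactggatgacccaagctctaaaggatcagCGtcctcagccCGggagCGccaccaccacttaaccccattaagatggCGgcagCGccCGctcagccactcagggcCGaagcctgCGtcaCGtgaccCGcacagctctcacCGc
Zfp57, chr17:37000913-37001162 (plus strand): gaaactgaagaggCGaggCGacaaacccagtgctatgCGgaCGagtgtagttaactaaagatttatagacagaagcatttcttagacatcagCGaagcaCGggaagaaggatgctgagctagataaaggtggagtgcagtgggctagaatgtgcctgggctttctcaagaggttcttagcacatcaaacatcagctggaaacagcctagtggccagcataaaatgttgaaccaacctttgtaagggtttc
Zfp638, chr6:83914103-83914352 (plus strand): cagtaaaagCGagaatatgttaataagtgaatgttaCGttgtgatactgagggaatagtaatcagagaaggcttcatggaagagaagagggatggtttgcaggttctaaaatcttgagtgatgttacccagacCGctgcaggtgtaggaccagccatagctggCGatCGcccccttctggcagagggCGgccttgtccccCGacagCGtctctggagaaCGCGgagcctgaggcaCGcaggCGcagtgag
*Zfp207*, whose product helps to load the spindle checkpoint onto kinetochores, had 14 CpGs in these bases, and *Zfp638*, whose window lay 47.3 kb inside the start of the gene and whose product binds nucleic acid and silences unintegrated retroviral DNA, had 12. *Zfp57*, the KRAB zinc finger gene that protects imprints, had 6. Over the 300-base window that runs on to 50 bases past the start, the ratio of observed to expected CpG was 0.852 for *Zfp207*, 0.810 for *Zfp638* and 0.376 for *Zfp57*.

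The members' levels ran over a wide range. The lowest was 201, the lower quartile 301, the median 544, the upper quartile 958 and the highest 10444, and 81 members lay between 200 and 500, 52 between 500 and 1000, 33 between 1000 and 5000 and 10 above 5000. The 108 Zfp genes below the minimum had a median of 97.8 and ran from 0.219 to 194. In all, 62.0% of the 284 Zfp genes reached 200, beside 49.4% of all 19338 symbols, whose median was 192. The 9370 other genes at or above 200 had a median of 905, above that of the members. The members together held 1.12% of the summed mean normalized counts of all named entries.

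The values at the minimum lay close together. Just inside it were *Zfp667* at 203, *Zfp811* at 203 and *Zfp771* at 201, and just outside it *Zfp90* at 194, *Zfp623* at 192 and *Zfp341* at 190. No gap in level separated the members from the Zfp genes left out.

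**Figure D1:**
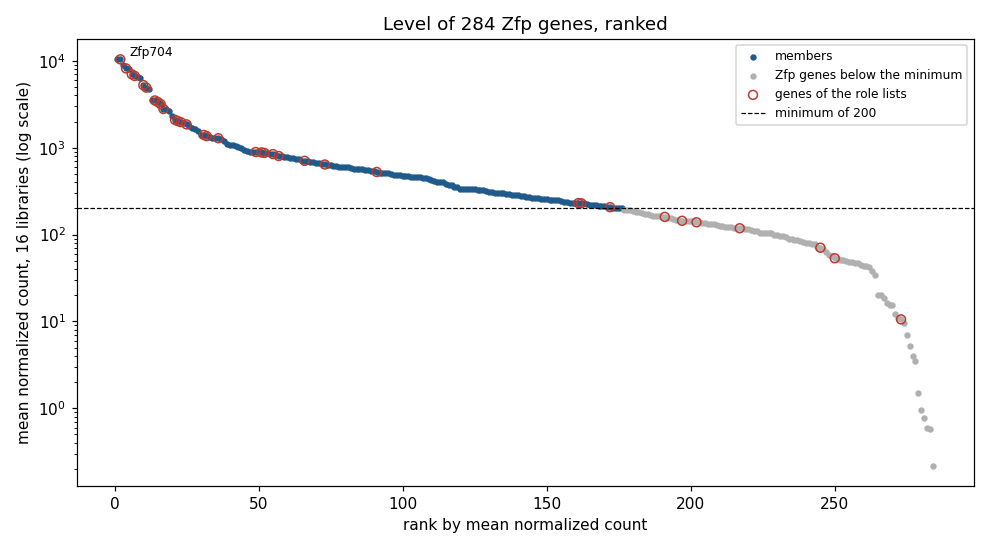
Mean normalized count over 16 libraries (log scale) of each of 284 Zfp genes by rank, with members left in blue and genes below the minimum of 200 in grey, and genes of the role lists circled in red. The curve runs through the minimum with no step, and *Zfp704* leads at 10444.

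A few genes held much of the members' signal. The 10 highest had 37.6% of the members' summed level and the 20 highest 53.9%. They were led by *Zfp704* (chr3:9427010-9610085) at 10444 and *Zfp462* (chr4:54944491-55083563) at 10399, whose product works in the pluripotency network and at heterochromatin. *Zfp407* followed at 9037 and *Zfp106*, which encodes an RNA-binding protein, at 8179. *Zfp292* had 8061, *Zfp207* 6999 and *Zfp638* 6695. *Zfp148*, whose product binds GC-rich promoter sequence, had 6464, *Zfp644*, known in human cells as a partner of the H3K9 methyltransferases G9a and GLP, had 6329, and *Zfp532* had 5256. None of the 10 had a KRAB match. *Zfp704* was 136th of all symbols.

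These counts are not corrected for length, and the highest members were long genes. Of the 10, 9 were longer than 50 kb from start to end, against 17 of the other 166 members, and their median length was 115 kb, against 20.6 kb for the median of all 176. Across the members, level and gene length gave a Spearman rho of 0.49 (n = 176 genes, from 1 pooled mean, so the points share libraries). The rho of level with transcript length was 0.34 (n = 175). In nuclear RNA a count may hold intron reads, and whether the authors counted exons or whole genes is not stated in the sources used here.

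**Figure D2:**
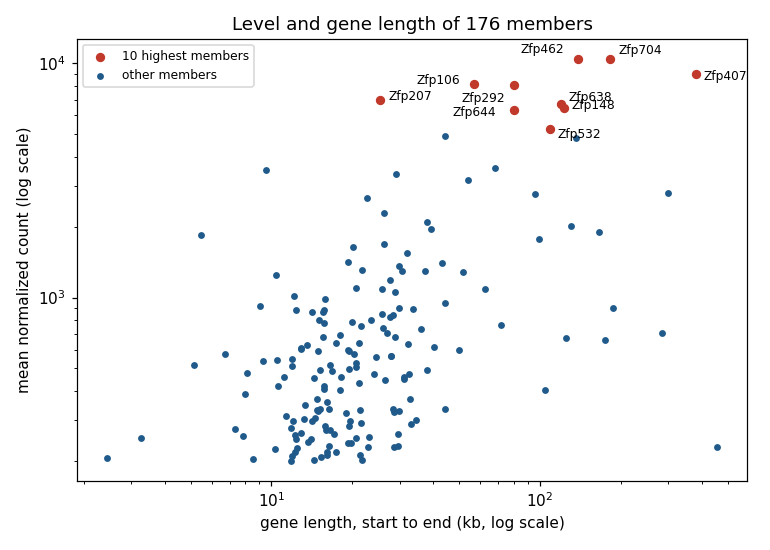
Mean normalized count against gene length from start to end for the 176 members (both log scales), with the 10 highest in red and the others in blue. Only *Zfp207* of the 10, at 25.3 kb, is shorter than 50 kb, and *Zfp536*, the longest member at 456 kb, lies near the minimum at 230.

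Per kilobase of transcript the order changed at the top, over 175 members, since *Zfp267* had no transcript model. *Zfp207* (chr11:80383279-80408561) had the highest level per kilobase at 2415, *Zfp57* (chr17:37001163-37010729) had 1758, *Zfp638* had 1537, *Zfp568* (chr7:29983955-30028282) had 1227 and *Zfp407* had 1143. For 4 members, *Zfp638*, *Zfp318*, *Zfp811* and *Zfp839*, the listed transcript was shorter than the coding length of the longest protein, which raises their values. Over the transcript of the longest protein, *Zfp207* led at 4481, ahead of *Zfp568* at 2438 and *Zfp57* at 2001, and *Zfp638* was 8th at 1080. That transcript was itself shorter than the listed one for *Zfp207* (1.562 against 2.898 kb), *Zfp568* (2.016 against 4.005 kb) and *Zfp57* (1.749 against 1.991 kb). This raises their values, so the order of *Zfp568* and *Zfp57* depends on the transcript model. *Zfp568* encodes a KRAB zinc finger repressor of a placental transcript of *Igf2*. The median member had 161 per kilobase, against 28.9 for the Zfp genes below the minimum and 310 for the 9216 other genes at or above 200 with a transcript length. Of the 10 highest by level, 7 were among the 10 highest per kilobase of transcript and 3 among the 10 highest per kilobase of gene. *Zfp704* was 13th per kilobase of transcript and 29th per kilobase of gene, where *Zfp57* led at 366, ahead of *Zfp281* at 338 and *Zfp207* at 277.

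The members of the lists with known roles were spread over the range. Of all 284 Zfp genes 62.0% were members. The lists were short, and whether any role was in excess among the members was not tested. Of 7 pluripotency genes, 6 were members. *Zfp462* had 10399, *Zfp207* 6999, *Zfp281*, whose product interacts with NANOG, 1856, and *Zfp217*, whose product sits with LSD1 and CoREST, 1402. *Zfp143* had 892 and *Zfp219* 802. *Zfp296* was not a member at 160.

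Of the 6 imprint and retroelement genes found, 5 were members. *Zfp568* had 4915, *Zfp57* 3500 and *Zfp445*, which also keeps imprints, 2093. *Zfp809*, which silences retroviruses through their proline primer binding site, had 843 and *Zfp708* had 229. *Zfp819* lay below at 118. Per kilobase of transcript the 5 ran from 1758 for *Zfp57* to 90.5 for *Zfp708*.

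Of 8 neural and developmental genes found, 4 were members, with *Zfp423*, which encodes a partner of EBF factors, at 2790, *Zfp521*, its close relative, at 706, *Zfp335* at 525 and *Zfp536* at 230. The other 4 ran from 10.6 for *Zfp488* to 138 for *Zfp703*. *Zfp423* and *Zfp521* are long genes of 300 and 286 kb, and per kilobase of gene they had 9.29 and 2.47, among the lowest of the members. Per kilobase of transcript they had 568.5 and 114, 19th and 113th of the members.

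Of 8 genes of RNA and ribosome function, 7 were members. *Zfp106* had 8179 and *Zfp638* 6695. *Zfp326*, part of a complex that links RNA polymerase II to splicing, had 1969, and *Zfp346*, which binds double-stranded RNA, had 1358. *Zfp598*, the ubiquitin ligase that marks collided ribosomes, had 883, *Zfp622*, a factor of large ribosomal subunit maturation, 871, and *Zfp36*, which encodes the mRNA decay factor tristetraprolin, 207. *Zfp593* lay below at 144.

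The ubiquitin and SUMO ligase genes *Zfp91* and *Zfp451* had 3358 and 3184. The 3 partners of ZMYND8 were members, with *Zfp532* at 5256, *Zfp592* at 1286 and *Zfp687* at 641. *Zfp277*, whose product is a partner of the Polycomb protein BMI1, had 2022, or 829 per kilobase of transcript, 10th of the members. Per kilobase of gene *Zfp277* had 15.5, 134th of the members. Of 15 genes listed for the silencing pathway that KRAB zinc finger proteins use, 14 were found, and *Setdb1* was not. The list includes general chromatin factors. All 14 reached 200, beside 49.4% of all symbols, from 473 for *Daxx* to 25497 for *Atrx*, with 5337 for *Trim28*. Per kilobase of transcript they ran from 183 for *Daxx* to 2481 for *Atrx*, with 1645 for *Trim28*. Beside these the median of all KRAB members per kilobase of transcript was 137.

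The proteins differed in their fingers. Of 175 members with a protein in GENCODE, 154 (88.0%) had at least 1 C2H2 finger under a strict spacing, and the median was 9. Among the Zfp genes below the minimum it was 97 of 105 (92.4%), with a median of 10. Under a looser spacing, 170 members had a finger, with a median of 10. The 3 members with the most strict fingers were *Zfp236* with 26, and *Zfp646* and *Zfp62* with 25 each. *Zfp62* had 24 of its fingers in 1 unbroken array, while *Zfp236* had at most 4 in a row.

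The 21 members with no strict finger included several of the highest genes. *Zfp704*, *Zfp106*, *Zfp207* and *Zfp638* were among them, and with the looser spacing these had 1, 3, 2 and 2. *Zfp143* and *Zfp523* had 7 loose fingers each and no strict one. *Zfp185*, *Zfp330*, *Zfp365*, *Zfp839* and *Zfp36* had none under either, and *Zfp36* is known for fingers of another kind, with 3 cysteines and 1 histidine. The others with no strict finger were *Zfp609*, *Zfp277*, *Zfp326*, *Zfp346*, *Zfp706*, *Zfp598*, *Zfp622*, *Zfp395*, *Zfp608* and *Zfp830*. The 21 had a median of 311 per kilobase of transcript, against 151 for the 154 members with a strict finger. Under the looser spacing the order turned, with 104 for the 5 members that had no finger and 161 for the 170 that had one. Across members, level per kilobase of transcript and strict finger number gave a Spearman rho of -0.40, and with the loose count -0.29 (n = 175 genes that share 1 pooled mean). It was weaker on the other scales, at -0.27 and -0.15 for the level itself and at -0.15 and -0.12 per kilobase of gene.

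A KRAB match was found in 63 of 175 members (36.0%) and in 38 of 105 Zfp genes below the minimum (36.2%), nearly the same share. The pattern was a strict one, and a looser one matched 73 members (41.7%) and 48 genes below the minimum (45.7%), *Zfp445* among those added. The KRAB members had a median of 12 strict fingers, against 6 for the 112 members without a match, and the longest unbroken array had a median of 10 fingers, against 3. Their median level was 407, against 612, and per kilobase of transcript it was 137, against 181. Among the Zfp genes below the minimum, the median level was 98.3 with a match and 97.4 without. Per kilobase of transcript those medians were 25.5 and 33.1. Both sets were cut by level, so these medians only describe them. Of the 44 highest members 8 had a KRAB match, and of the 44 lowest 19. *Zfp568* at 4915 and *Zfp57* at 3500 stood well above the median of their class.

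**Figure D3:**
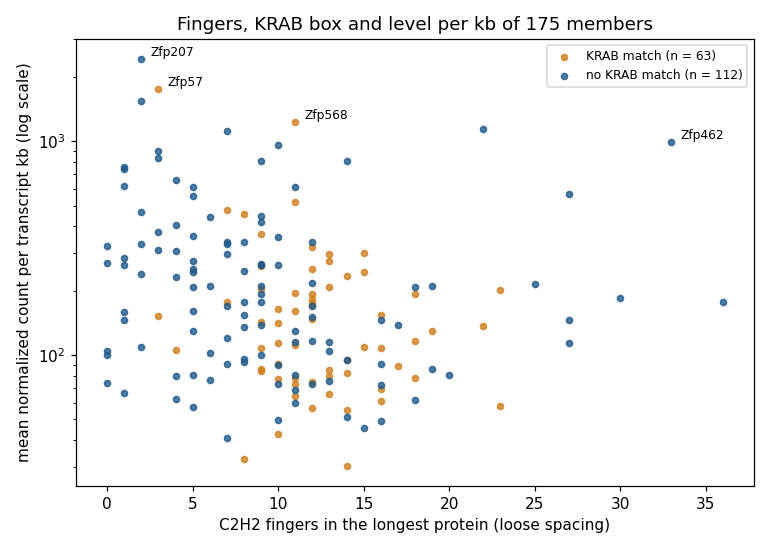
Mean normalized count per kilobase of transcript (log scale) against the number of C2H2 fingers under the looser spacing for 175 members, with 63 KRAB members in orange and 112 others in blue. The highest, *Zfp207* at 2415 and *Zfp57* at 1758, have 2 and 3 fingers, but *Zfp568* with 11 at 1227 and *Zfp462* with 33 at 994 are also near the top.

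Members lay on 20 chromosomes. Chromosome 7 held most, with 37 members and 42 Zfp genes below the minimum, so 46.8% of its 79 Zfp genes were members. Chromosome 17 had 24 members and 5 below (82.8%), of which 19 members carried a KRAB match. Chromosome 8 had 13 and 8, chromosome 9 had 13 and 5, and chromosome 6 had 10 and 8.

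**Figure D4:**
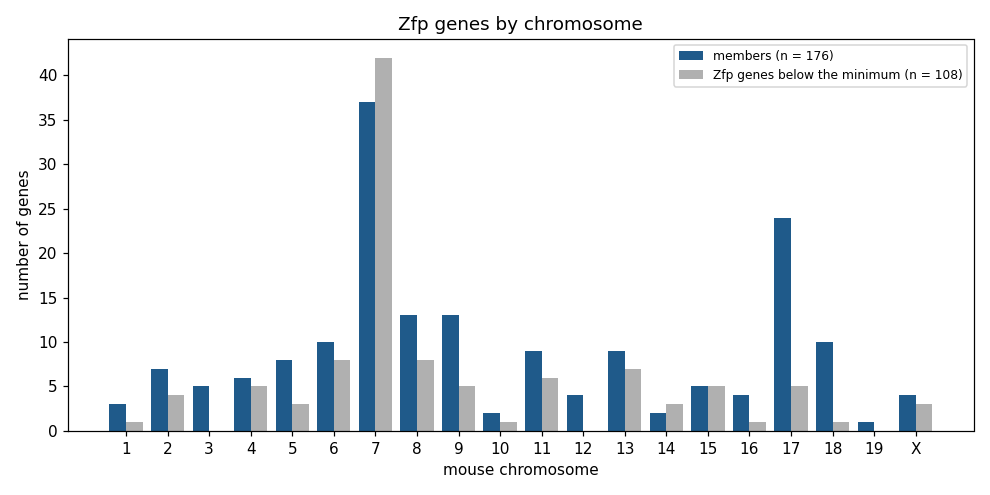
Number of Zfp genes on each mouse chromosome, with members in blue and genes below the minimum in grey. Chromosome 7 is the tallest in both, and chromosome 17 has 24 members beside 5 genes below the minimum.

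Zfp genes are known for lying in tandem clusters. With a gap of at most 500 kb between neighbours, 25 clusters held 3 or more Zfp genes, and 86 members (48.9%) and 63 Zfp genes below the minimum (58.3%) lay in one. The largest, at chr7:29768552-30169775 in GRCm38, held 15 genes, 10 of them members, from 48.6 to 4915 for *Zfp568*. The next, at chr7:24081877-25227876, held 14 genes, of which 3 were members and none had a strict KRAB match, with 850 for *Zfp180* as its highest. At chr17:21008941-21845759 and chr17:32765496-33631716 lay 10 genes each, of which 8 in each were members and 9 in each had a KRAB match. In 2 of the 25 clusters every Zfp gene was a member.

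Clustered members had a lower median than the others. The 86 had a median of 115 per kilobase of transcript, and the 89 outside with a transcript length had 234. Per kilobase of gene the gap was smaller, with medians of 23.4 for the 86 and 29.9 for the 90 outside. The median of the level itself was 451 and 789. The clustered ones held 49 of the 63 KRAB members. Within the clusters the 49 KRAB members and the 37 without a match had medians of 116 and 114 per kilobase of transcript. Outside them the 14 KRAB members and the 75 without had 170 and 252 per kilobase of transcript. The gap and the cluster size were chosen after values had been seen.

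Promoters were compared over 142 members, 85 Zfp genes below the minimum, 7460 other genes at or above 200 and 13855 genes in all. A promoter counted as CpG-rich with an observed to expected CpG ratio of at least 0.6 and at least 50% GC. That was so for 58.5% of members, 61.2% of Zfp genes below the minimum, 78.3% of other genes at or above 200 and 55.2% of all genes. With a ratio of at least 0.75 and at least 55% GC the shares were 28.9%, 29.4%, 54.9% and 36.7%, so members stood above all genes under the first thresholds and below them under the second. Of the KRAB members 33.9% had a CpG-rich promoter, against 75.3% of members without a match. The median observed to expected CpG ratio of members was 0.588 with a match (n = 56) and 0.726 without (n = 85). Among the Zfp genes below the minimum it was 0.703 with a match (n = 33) and 0.707 without (n = 52). The median ratio was thus clearly lower with a KRAB match in members only. Below the minimum both quartiles were also lower with a match, at 0.5 and 0.778, against 0.567 and 0.883 without.

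Of 6 short motifs, on both strands, the GC box GGGCGG was in 54.9% of member promoters, 40.0% of Zfp promoters below the minimum, 70.7% of other genes at or above 200 and 55.2% of all. The CCAAT box was in 46.5%, 41.2%, 38.0% and 37.7%. TATAAA was in 7.04%, 8.24%, 6.09% and 10.1%. The ETS core CCGGAA was in 33.8%, 32.9%, 30.7% and 22.1%. The YY1 core ATGGCG was in 21.1%, 15.3%, 17.1% and 12.6%, and the ZFP143 core ACTACAA in 9.15%, 5.88%, 4.58% and 3.80%. GGGCGG and ATGGCG can share bases where they meet. A match is only a run of letters and says nothing of binding.

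**Figure D5:**
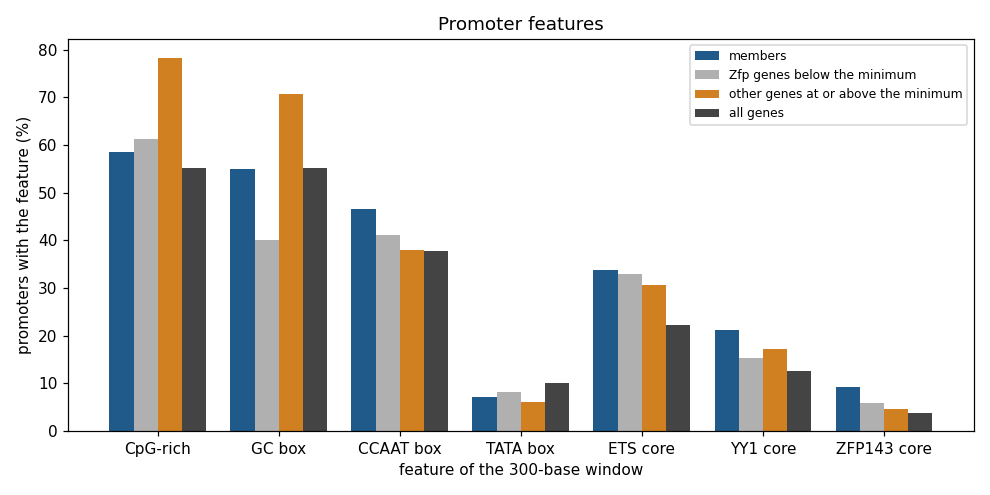
Share of promoters (%) that are CpG-rich or hold each of 6 motifs within 300 bases, for members, Zfp genes below the minimum, other genes at or above 200 and all genes, left to right. CpG-rich promoters make up 58.5% for members, 61.2% for Zfp genes below the minimum and 78.3% for other genes at or above 200. The median level was 544 for members, 97.8 for Zfp genes below the minimum and 905 for the other genes.

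The ZFP143 core is shown in its surroundings because the gene of the factor, *Zfp143*, is itself a member. The 13 members with a match are given as 30-base windows, read 5′ to 3′ on the strand of the match, by falling level, with the core in capitals.
Zfp277, chr12:40445968-40445997 (plus strand): agcgtaagaACTACAActtccagcatgccg
Zfp180, chr7:24081865-24081894 (minus strand): ctcaatggaACTACAAttcccagaactctc
Zfp1, chr8:111643408-111643437 (minus strand): aggtgtaggACTACAAttcccataatgcct
Zfp219, chr14:52019700-52019729 (plus strand): tcacccgagACTACAAatcccaggatgccc
Zfp933, chr4:147848430-147848459 (minus strand): ttccaaagaACTACAAttcccagcattcca
Zfp229, chr17:21733499-21733528 (minus strand): tagaggcagACTACAAaacagttctagaga
Zfp267, chr3:36150879-36150908 (plus strand): gtcagctttACTACAActgtaccaaaaact
Zfp697, chr3:98382383-98382412 (plus strand): tctcggtgaACTACAAatcgaggcatgctg
Zfp692, chr11:58307012-58307041 (plus strand): ctaaggctaACTACAAttcccggcaggctt
Zfp606, chr7:12478272-12478301 (plus strand): ctctttgaaACTACAActcccaatagtcct
Zfp169, chr13:48513493-48513522 (plus strand): gatgggggaACTACAAtacccagaatgccg
Zfp111, chr7:24208370-24208399 (minus strand): acttACTACAAttgtctttcatgccatttt
Zfp58, chr13:67500533-67500562 (plus strand): agtggccagACTACAAttcccacaagtctg
In 5 of the 13, *Zfp180*, *Zfp1*, *Zfp933*, *Zfp692* and *Zfp58*, the core was followed by TTCC, and in those 5 it lay between 18 and 48 bases before the start. That longer form was looked for after these windows were seen. It was in 3.52% of member promoters, in 4.71% of those of Zfp genes below the minimum, in 0.751% of other genes at or above 200 and in 0.556% of all. Both sets of Zfp genes thus had it, members and genes below the minimum.

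The YY1 core was found in 30 member promoters. The cluster with the most, on chromosome 8, held 3 of them among its 6 Zfp genes, 4 of which were members. The other member there, *Zfp930*, had no promoter window. It was chosen for that number. The 3 windows are shown on the strand of the match, opposite to the gene, with the core in capitals.
Zfp866, chr8:69774886-69774915 (plus strand): gagccacaatATGGCGgccgtgaagaaccc
Zfp868, chr8:69625525-69625554 (plus strand): tttagctaacATGGCGgccgaaaagaaccc
Zfp869, chr8:69716869-69716898 (plus strand): aatctgcagcATGGCGgcggataggaccca
In all 3 the core lay from 8 to 18 bases past the start. The levels were 629 for *Zfp866*, 590 for *Zfp868* and 509 for *Zfp869*, close to the median of all members. Per kilobase of transcript they had 194, 261 and 320, above the members' median of 161.

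Some levels may hold reads of other genes. Of the members, 16 overlapped a coding gene on the opposite strand and 62 any gene, *Zfp219*, *Zfp445* and *Zfp809* among the 16. The libraries were made with a directional kit, which keeps the strand, but whether the counting used it is not stated in the sources used here. KRAB zinc finger genes in tandem clusters are often close copies, so their levels are uncertain where reads were shared between them. For 5 members the table held 2 entries under 1 symbol, among them *Zfp217*, whose entries summed to 2757. The 2 entries of *Zfp516* summed to 5485, above the 5256 of *Zfp532*, so with summed entries *Zfp516* would be among the 10 highest members.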

How the data were processed

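Nuclear RNA-seq of mouse ESCs was deposited as 3 tables, each a comparison of a null group with wild type. Per the labels and the methods of the study, ribosomal reads were removed with Bowtie 2, reads were aligned to mm10 with STAR, duplicates were removed and DESeq2 was run on a nonredundant gene set, with versions not given in the sources used here. The signal used was the mean normalized count, scaled and averaged by the authors over all 16 libraries, and identical in the 3 tables for all 20633 entries (897 at 0). The tables also hold the authors' log2 fold changes, their errors, test statistics and p-values, which were not used, so no test was made and no group was compared. No replicate spread can be had from a mean.

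RefSeq IDs were named from RefSeq (20446 entries) and otherwise GENCODE M21 (114), giving 19338 symbols. Transcript lengths came from GENCODE and gene lengths and promoters from RefSeq GRCm38.p6, the same assembly as mm10. Fingers and KRAB boxes were found by pattern in the longest complete protein of each gene. The protein of the listed transcript was used first, and it was replaced after short isoforms were seen to lose fingers. The strict finger was C, 2 residues, C, 12 residues, H, 3 residues, H, and the loose one allowed 2 to 4 residues between the cysteines and 3 to 5 between the histidines. Patterns were checked on made-up sequences. Genes were named in the text by level (10 highest, 5 highest per kilobase, 3 each side of the minimum), by most fingers or none, and by role list. The members and lists were chosen with earlier results of these data known. Python 3.11.15, pandas 2.3.3 and scipy 1.17.1 were used.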

Additional observations from a re-analysis of the deposited data

How the results depend on the processing

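A minimum of 500 gave 95 members with a median level of 902, in place of 176 and 544, and a minimum of 100 gave a median of 395. The rank agreement of level with level per kilobase was 0.85 by listed transcript, 0.62 by gene length and 0.86 by the transcript of the longest protein. The median number of fingers was 9 with the strict and 10 with the loose spacing. Stricter thresholds gave 41 members with a CpG-rich promoter, in place of 83. The member count under the minimum of 100, summed entries, letter suffixes, *Zfp42* and RefSeq symbols alone stayed within 1.5 times of 176, as did the counts of finger and KRAB members under the looser patterns and the listed transcript's protein, and the count of clustered members with gaps of 250 and 1000 kb. The 2 gaps, RefSeq symbols alone, the protein of the listed transcript and the transcript of the longest protein were chosen after seeing the data. No paired analysis was possible because the result comes from no test. Depth by library is unknown, so no counting error is given.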
